A study of Homo sapiens with 18 samples.

Results

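The genes described here are the hnRNP and SR splicing factors of HCT116, a human colorectal carcinoma cell line, with HNRNPK itself set aside. A gene was included when its symbol began with HNRNP, consisted of SRSF and digits, or was TRA2A, TRA2B, PTBP1, PTBP2 or PTBP3, and when the deposited table typed it as protein coding. Of the 31004 genes in the count table, 38 met this rule. They were 21 HNRNP genes, 12 SRSF genes, 2 TRA2 genes and 3 PTBP genes.

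Total RNA was sequenced in bulk, and the labels do not say whether ribosomal RNA was depleted or poly(A) RNA selected. HCT116 cells had 1 of 3 backgrounds and received a second treatment on top. The backgrounds were an empty control (Ctrl), overexpression of the long noncoding RNA CRLM1 (CRLM1) and an antisense control (Antisense). The paper describes its antisense control as overexpression of CRLM1 antisense. The second treatment was a construct expressing HNRNPK, cloned in the pTSB vector per the labels (hnRNPK), or a negative control (NC). The 6 groups were thus Ctrl_NC, CRLM1_NC, Antisense_NC, Ctrl_hnRNPK, CRLM1_hnRNPK and Antisense_hnRNPK, with 3 biological replicates each. All come from 1 cell line. CRLM1 was delivered stably by a lentiviral vector with puromycin selection, no picking of single clones is mentioned, and how the antisense and empty controls were kept is not given in the sources used here. The question of the study was which genes CRLM1 and hnRNPK control, alone and together.

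Heterogeneous nuclear ribonucleoproteins (hnRNPs) coat nascent transcripts and, through RNA recognition motifs, KH domains and glycine-rich stretches, often keep splice sites or exons from being used. SR proteins pair RNA recognition motifs with a tail rich in arginine and serine, bind exonic enhancers and recruit the spliceosome. Many exons read the balance between both families, and many genes of both families limit their own output through exons whose inclusion leads to mRNA decay. The PTB proteins, which bind pyrimidine tracts, belong to the hnRNPs (PTBP1 is hnRNP I) and replace each other between tissues. SR proteins are phosphorylated on their serines by SRPK and CLK kinases, which sets where in the cell they act.

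Libraries held 19732681 to 27039520 counts and 19555 to 22370 detected genes. The label HCT116 was checked on epithelial markers. EPCAM stood at 251.5 to 450.5 CPM, the counts scaled to a common library size, KRT8 at 861 to 3706 CPM, whereas VIL1 stayed at or below 0.796 CPM, CDX2 at 2.34 to 16.6 CPM, and the listed leukocyte, endothelial and liver markers at or below 0.504 CPM. Among the fibroblast markers, COL1A1 measured 11.2 to 32.8 CPM and the other 3 at most 0.357 CPM. HNRNPK, the target of the construct, measured 463, 471 and 480 CPM in Ctrl_NC and 617, 644 and 491 CPM in Ctrl_hnRNPK. It measured 461, 454 and 456 CPM in CRLM1_NC and 671, 713 and 571 CPM in CRLM1_hnRNPK, and 433, 434 and 424 CPM in Antisense_NC against 540, 532 and 583 CPM in Antisense_hnRNPK. Every hnRNPK library was thus above every NC library of its background, by a factor below 2. With all libraries this difference did not pass in the Ctrl or the CRLM1 background (edgeR adjusted p = 0.36 and 0.53). Counts of the construct and of the endogenous gene cannot be told apart in these tables. The gene of CRLM1 (LINC01767, listed as RP4-710M16.2) was at 0 in all Ctrl libraries, at 580 to 659 CPM in the CRLM1 libraries and at 39.1 to 50.0 CPM in the Antisense libraries.

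In the Ctrl and CRLM1 backgrounds, the third hnRNPK library stood apart and was left out by the study after its profile was correlated with the others. Across genes, these 2 libraries correlated at 0.956 to 0.965 with their own replicates and at 0.980 to 0.986 with the NC libraries of their background, while the other libraries correlated at 0.987 to 0.991 with their own replicates. The members moved the same way. Together they took 0.540 to 0.550% of the counts in the 9 NC libraries, 0.651 to 0.728% in the 7 other hnRNPK libraries, and 0.525% and 0.482% in the third Ctrl_hnRNPK and CRLM1_hnRNPK libraries. Counts of members for the hnRNPK construct are therefore given with all libraries and without these.

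**Figure D1:**
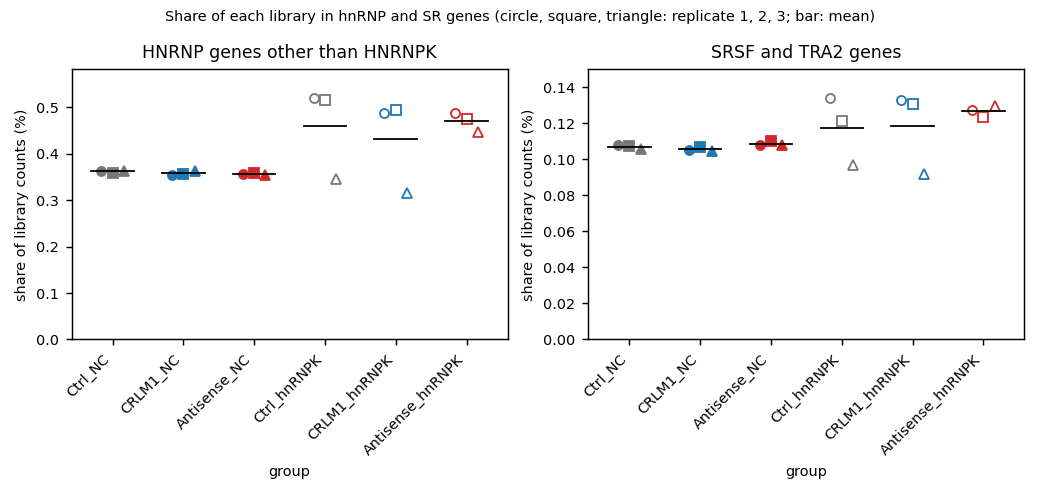
Share of each library's counts (%) taken by the HNRNP genes other than HNRNPK (left) and by the SRSF and TRA2 genes (right), by group. Each symbol is 1 library and each bar the group mean. The third Ctrl_hnRNPK and CRLM1_hnRNPK libraries (triangles) lie below the NC libraries, and the other hnRNPK libraries lie above them.

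The sequence feature that separates the families is shown first. Coding sequences of the reference transcripts (GRCh38, Gencode v44) were read codon by codon, and neighbouring arginine and serine codons were counted. The 12 SRSF genes held 4.07 to 23.5 such pairs per 100 codons (median 17.6), from SRSF9, whose tail is short, up to SRSF2. TRA2A held 14.2 and TRA2B 17.4 per 100 codons. The 21 HNRNP genes held 0.241 to 2.64 and the PTBP genes 0.377 to 0.718. Glycine took a median of 14.5% of HNRNP codons and 7.16% of SRSF codons. Below are the 40-codon windows richest in these pairs for 4 SR genes that the results below turn on, SRSF1 (chr17:58005457-58005576, minus strand, codons 193 to 232, 22 pairs), SRSF3 (chr6:36601171-36601974, plus strand, codons 121 to 160, 19 pairs), SRSF4 (chr1:29149223-29154721, minus strand, codons 185 to 224, 22 pairs) and SRSF10 (chr1:23971593-23971935, minus strand, codons 118 to 157, 14 pairs). PTBP1 (chr19:803579-804097, plus strand, codons 20 to 59, 3 pairs) is the contrast. They are written 5′ to 3′ in the sense of the gene, with codons of a neighbouring arginine and serine in capitals. The genomic spans of all but SRSF1 include introns, which are not printed.
SRSF1: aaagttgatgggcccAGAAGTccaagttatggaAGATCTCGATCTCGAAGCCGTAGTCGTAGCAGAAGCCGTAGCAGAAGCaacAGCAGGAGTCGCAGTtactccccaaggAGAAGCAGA
SRSF3: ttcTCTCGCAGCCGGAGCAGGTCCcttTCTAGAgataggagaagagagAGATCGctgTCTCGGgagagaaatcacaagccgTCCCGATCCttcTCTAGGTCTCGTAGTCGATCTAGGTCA
SRSF4: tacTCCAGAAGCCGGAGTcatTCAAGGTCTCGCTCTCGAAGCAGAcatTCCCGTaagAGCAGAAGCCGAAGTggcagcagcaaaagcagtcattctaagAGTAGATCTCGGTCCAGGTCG
SRSF10: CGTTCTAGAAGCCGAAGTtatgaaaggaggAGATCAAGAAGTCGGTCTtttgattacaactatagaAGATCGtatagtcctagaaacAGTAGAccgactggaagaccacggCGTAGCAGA
PTBP1: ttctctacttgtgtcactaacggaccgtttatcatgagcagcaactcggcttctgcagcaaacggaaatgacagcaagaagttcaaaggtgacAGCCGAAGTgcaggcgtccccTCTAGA

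Levels can be compared between genes per exon length, as the deposited FPKM. In Ctrl_NC, SRSF9 was the highest at 170 ± 3.59 FPKM (SD, n = 3), followed by PTBP1 at 130 ± 2.65 FPKM and HNRNPA2B1 at 119 ± 4.16 FPKM, and these 3 did not overlap with each other or with the next gene. HNRNPUL1 (57.0 ± 1.57 FPKM) and SRSF4 (56.6 ± 0.372 FPKM) overlapped, as did HNRNPC (53.6 ± 0.364 FPKM) and HNRNPL (52.8 ± 3.27 FPKM). The middle of the order, from HNRNPF (37.1 ± 0.267 FPKM) down to SRSF5 (8.67 ± 0.447 FPKM), held many neighbours whose libraries overlapped, among them HNRNPH2, SRSF6, SRSF7 and SRSF5 at 9.86 to 8.67 FPKM. At the low end were SRSF3 (5.17 ± 0.255 FPKM), SRSF10 (3.50 ± 0.107 FPKM), HNRNPLL (2.99 ± 0.140 FPKM) and SRSF8 (1.52 ± 0.0611 FPKM). Of the PTB family, PTBP1 was the abundant member, PTBP3 measured 12.1 ± 0.523 FPKM and PTBP2, best known from neurons, 0.327 ± 0.0208 FPKM. HNRNPA1L2 had at most 12 counts in any library and SRSF12 at most 3, and both were too low for the edgeR filter in the 6 comparisons with all libraries. HNRNPA1L2 entered the Antisense minus Ctrl interaction fits below that left out the third libraries. It also entered the Antisense_hnRNPK fits without Antisense_NC replicate 1 or 3. DESeq2, run with a looser filter, took in 37 or 38 members.

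**Figure D2:**
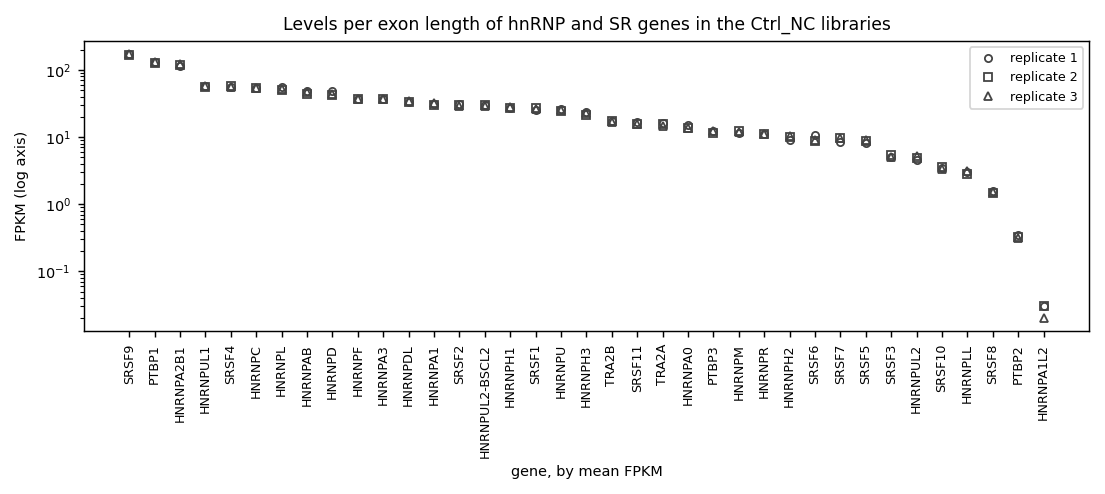
Level of each member in the 3 Ctrl_NC libraries in FPKM (log axis), ordered by the mean, with SRSF12 left out because it was listed at 0. Levels run from SRSF9, PTBP1 and HNRNPA2B1 above 100 FPKM down to PTBP2 at 0.327 FPKM and HNRNPA1L2 at 0.0267 FPKM.

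Some counts are uncertain by construction. The strand setting of the counting is not given in the sources used here, HNRNPU overlaps HNRNPU-AS1 (9.20 to 13.2 CPM in Ctrl_NC against 212 to 223 CPM for HNRNPU), and the readthrough gene HNRNPUL2-BSCL2 overlaps HNRNPUL2 and BSCL2. HNRNPA1 has 24 listed pseudogenes named HNRNPA1P, but no pseudogene of these families exceeded 45 counts in a library, against 2969 to 6690 for HNRNPA1.

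CRLM1 overexpression was first compared with the empty control in the absence of the HNRNPK construct. Changes among the members were small and, with the main TMM scaling, more often downward. The split turned on library totals alone, as given below. Against Ctrl_NC, CRLM1_NC had 5 of 36 tested members higher and 11 lower at an edgeR adjusted p of at most 0.05. Of all genes, 34.3% passed in this comparison (16.9% higher, 17.4% lower). None passed 2-fold, against 1.58% of all genes. In a bulk culture, fewer cells with a transcript and less of it per cell cannot be told apart.

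The largest decrease was in SRSF2 (SC35, an SR protein of nuclear speckles; chr17:76734115-76737333). SRSF2 measured 130, 124 and 122 CPM in Ctrl_NC and 84.9, 91.5 and 90.3 CPM in CRLM1_NC. The groups did not overlap, and the log2 fold change was -0.51 (SE 0.04, edgeR adjusted p = 4.07e-12). HNRNPL, which binds CA-rich RNA (chr19:38836370-38852347), measured 203, 182 and 184 CPM against 139, 136 and 152 CPM. All 3 CRLM1_NC libraries lay below all Ctrl_NC libraries, at a log2 fold change of -0.43 (SE 0.04, edgeR adjusted p = 9.02e-11). HNRNPC, which coats uridine tracts, fell by 0.40 on the log2 scale, and HNRNPA0, a glycine-rich A/B type protein, fell by 0.37. The increases were smaller. HNRNPF, which binds G tracts, rose by 0.23 on the log2 scale (SE 0.04, edgeR adjusted p = 1.81e-06), SRSF6 by 0.21, and HNRNPUL1 and HNRNPAB by 0.14 each. PTBP1 measured 679, 657 and 678 CPM in Ctrl_NC and 680, 671 and 675 CPM in CRLM1_NC, a log2 fold change of -0.01 (SE 0.03, edgeR adjusted p = 0.867). PTBP2 (0.23, SE 0.16) and PTBP3 (0.10, SE 0.04) did not pass either.

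Transcript GC content accompanied many differences in these libraries, so each comparison was refitted with the smooth trend of level on GC content and exon length removed from every library. With this trend removed, CRLM1_NC had 4 members higher and 15 lower, where 33.3% of all genes passed (14.4% higher, 18.9% lower). SRSF2, HNRNPL, HNRNPC and HNRNPA0 kept their direction and passed (log2 fold changes -0.513, -0.415, -0.479 and -0.485), while SRSF6 no longer passed (0.11, edgeR adjusted p = 0.150). With scaling to library totals alone, the split was 10 higher and 7 lower, where 36.6% of all genes passed (25.0% higher, 11.6% lower).

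The antisense control differed from the empty control in more members than CRLM1 did, and in a larger share of all genes as well (66.5% against 34.3%). The share of mitochondrial counts also differed between these groups without overlap, at 4.06 to 4.25% in Ctrl_NC, 4.95 to 5.12% in CRLM1_NC and 6.64 to 7.17% in Antisense_NC, and its part in the results was not tested. Both comparisons use the Ctrl_NC libraries, so their values are set side by side and not as separate evidence. Between Antisense_NC and Ctrl_NC, 13 of 36 members were higher and 13 lower, where 66.5% of all genes passed (34.4% higher, 32.2% lower). SR genes split within the family. Of the 11 tested SRSF genes, 5 rose, 4 fell and 2 did not pass.

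SRSF1, the founding SR protein and one whose excess transforms cells (chr17:58000919-58007346), fell most. It measured 117, 125 and 120 CPM in Ctrl_NC and 63.1, 59.7 and 63.7 CPM in Antisense_NC. The Antisense_NC libraries sat close together and far below the control libraries, with a log2 fold change of -1.01 (SE 0.05, 0.498-fold, edgeR adjusted p = 7.18e-20). It was the only member past 2-fold, by a narrow margin that DESeq2 and scaling to library totals, among other alternatives, did not keep, against 14.1% of all genes. SRSF6 and SRSF3 moved the other way. SRSF6 measured 66.6, 54.2 and 56.7 CPM in Ctrl_NC and 102, 104 and 98.4 CPM in Antisense_NC (log2 fold change 0.74, SE 0.06, edgeR adjusted p = 6.05e-14). SRSF3, the smallest SR protein, measured 31.4, 34.3 and 31.5 CPM against 53.8, 58.0 and 54.8 CPM (log2 fold change 0.73, SE 0.07, edgeR adjusted p = 2.59e-12). Neither gene's groups overlapped. SRSF7 rose by 0.53 on the log2 scale and SRSF10, which represses splicing when dephosphorylated, by 0.46.

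The members that fell most after SRSF1 were hnRNPs. HNRNPL measured 131, 133 and 127 CPM in Antisense_NC, below its 182 to 203 CPM in Ctrl_NC (log2 fold change -0.59, SE 0.04, edgeR adjusted p = 9.74e-15). HNRNPA2B1, an A/B protein that also sorts RNA into vesicles, measured 613, 622 and 653 CPM in Ctrl_NC and 439, 455 and 460 CPM in Antisense_NC (log2 fold change -0.53, SE 0.03, edgeR adjusted p = 1.06e-16). HNRNPC measured 480, 485 and 476 CPM against 343, 361 and 354 CPM, a log2 fold change of -0.495 (SE 0.033). In these 3 genes every Antisense_NC library was below every Ctrl_NC library. PTBP1 fell by 0.16 on the log2 scale (edgeR adjusted p = 2.06e-05) and PTBP3 rose by 0.39 (edgeR adjusted p = 7.09e-11), whereas PTBP2 did not pass (0.30, SE 0.15).

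Scaling mattered here. Scaling to library totals alone moved the median log2 fold change of all genes to 0.16 and gave 18 members higher and 10 lower, where 66.8% of all genes passed (43.2% higher, 23.6% lower), with PTBP1 at -0.003 (edgeR adjusted p = 0.942). With the GC and length trend removed, the split was 5 higher and 22 lower, where 64.2% of all genes passed (29.8% higher, 34.4% lower). There SRSF1 stood at -1.42 and HNRNPA2B1 at -0.91, SRSF6 and SRSF3 stayed higher at 0.36 and 0.34, and SRSF10 (0.04) and PTBP3 (-0.03) no longer passed. Each library's deviation from the gene mean over all 18 libraries, in log2 CPM, was correlated with GC content across genes. This correlation (Spearman) was 0.523 to 0.542 in the Ctrl_NC libraries and 0.0637 to 0.218 in the Antisense_NC libraries. It is relative to that mean and does not describe the level itself.

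CRLM1 was also compared with the antisense control. Here 12 of 36 members were higher and 15 lower in CRLM1_NC, where 56.4% of all genes passed (26.9% higher, 29.5% lower), and none passed 2-fold, against 7.18% of all genes. SRSF1 was higher in CRLM1_NC, at 98.9, 105 and 98.1 CPM against 63.1, 59.7 and 63.7 CPM (log2 fold change 0.73, SE 0.05, edgeR adjusted p = 8.56e-15). SRSF3 was lower, at 34.5, 33.4 and 34.6 CPM against 53.8, 58.0 and 54.8 CPM (log2 fold change -0.67, SE 0.07, edgeR adjusted p = 3.37e-11). Both genes were clear of overlap between the groups. SRSF6, SRSF10 and SRSF5 were lower by 0.52, 0.49 and 0.43 on the log2 scale. HNRNPA2B1 (0.49), SRSF4 (0.43), HNRNPDL, a relative of the mRNA decay factor HNRNPD (0.27), and PTBP1 (0.16) were higher, and PTBP3 was lower (-0.29). The CRLM1_NC levels of SRSF3, SRSF10 and PTBP3 did not pass against Ctrl_NC. The split changed with the scaling, to 7 higher and 18 lower on library totals alone, where 56.6% of all genes passed (20.9% higher, 35.7% lower). With the GC and length trend removed it was 17 higher and 9 lower, where 52.9% of all genes passed (27.6% higher, 25.3% lower). PTBP3 stood at 0.03 there, and the other genes named in this comparison kept their direction and passed.

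**Figure D3:**
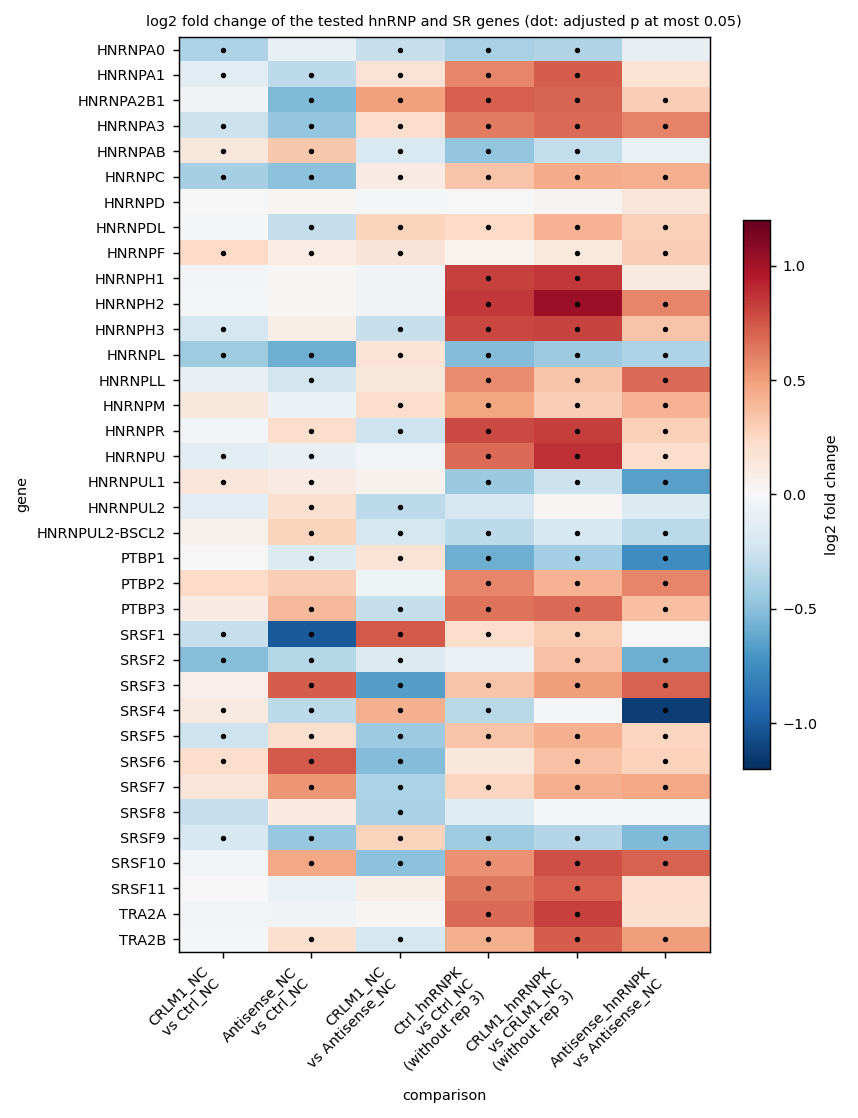
Log2 fold change (colour) of the 36 tested members in the 6 comparisons, with a dot where the edgeR adjusted p was at most 0.05. The Ctrl_hnRNPK and CRLM1_hnRNPK columns leave out the third hnRNPK library, since with all libraries no member passed there. SRSF1 is the deepest blue of the Antisense_NC column and SRSF4 that of the Antisense_hnRNPK column.

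The HNRNPK construct was compared with NC within each background. With all libraries, no member passed in the Ctrl background by edgeR or by DESeq2, with 5 of 36 at an unadjusted p under 0.05 by edgeR and 8 of 37 by DESeq2, and 0.0% of all genes passed by edgeR. The same held in the CRLM1 background, with 9 of 36 by edgeR and 12 of 38 by DESeq2 at an unadjusted p under 0.05, and again 0.0% of all genes passed. Leaving out the third hnRNPK library gave 22 members higher and 8 lower in the Ctrl background, where 59.6% of all genes passed (29.6% higher, 29.9% lower) and no member passed 2-fold, against 6.88% of all genes. In the CRLM1 background it gave 25 higher and 7 lower, where 58.5% of all genes passed (29.5% higher, 29.1% lower). In the Antisense background, where the study left out no library, 19 members were higher and 7 lower, where 63.9% of all genes passed (33.4% higher, 30.5% lower). The median log2 fold change over the tested members was 0.34, 0.42 and 0.23 in these 3 fits, against 0.03, 0.00 and 0.04 over all genes.

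In the Ctrl and CRLM1 backgrounds, HNRNPH1, HNRNPH2 and HNRNPH3, which bind runs of guanines, were among the members that moved most, while their relative HNRNPF stood at 0.04 and 0.125 without the third libraries. HNRNPH1 (chr5:179614178-179634784) measured 146, 146 and 149 CPM in Ctrl_NC and 260, 250 and 145 CPM in Ctrl_hnRNPK. In CRLM1_NC it measured 144, 144 and 145 CPM and in CRLM1_hnRNPK 252, 251 and 132 CPM. In both backgrounds the first and second hnRNPK libraries were far above NC and the third was below it. HNRNPH1 in Antisense_hnRNPK, at 153, 158 and 188 CPM, overlapped Antisense_NC at 154, 157 and 148 CPM. Without the third libraries, its log2 fold change was 0.82 in the Ctrl background (SE 0.06, edgeR adjusted p = 4.70e-09) and 0.85 in the CRLM1 background (SE 0.05, edgeR adjusted p = 2.60e-14). With all libraries these were 0.56 (edgeR adjusted p = 0.320) and 0.60 (edgeR adjusted p = 0.533), and in the Antisense background 0.11.

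HNRNPH2, its X-linked paralogue (chrX:101408222-101414133), measured 29.2, 32.4 and 32.4 CPM in Ctrl_NC and 54.8, 56.2 and 39.3 CPM in Ctrl_hnRNPK. In the CRLM1 background it went from 28.7, 30.9 and 34.6 CPM to 58.8, 65.1 and 34.7 CPM, and in the Antisense background from 33.3, 33.3 and 32.7 CPM to 49.9, 45.9 and 54.0 CPM. All hnRNPK libraries were above the NC libraries of their background, the third of CRLM1_hnRNPK barely so. The log2 fold change was 0.845 in the Ctrl background and 1.03 in the CRLM1 background when the third libraries were left out (SE 0.09 and 0.08, edgeR adjusted p = 2.09e-07 and 1.46e-11). The latter, 2.04-fold, was the only member past 2-fold in that fit, against 5.3% of all genes. In the Antisense background HNRNPH2 rose by 0.59 on the log2 scale. HNRNPH3 rose by 0.81 in both the Ctrl and the CRLM1 background without the third libraries. With all libraries HNRNPH2 stood at 0.66 and 0.81 (edgeR adjusted p = 0.320 and 0.533) and HNRNPH3 at 0.53 and 0.66 (edgeR adjusted p = 0.328 and 0.533).

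HNRNPU and HNRNPR followed the same course. HNRNPU, a chromatin-bound protein also known as scaffold attachment factor A (chr1:244840638-244864560), measured 210, 203 and 194 CPM in CRLM1_NC and 363, 356 and 217 CPM in CRLM1_hnRNPK, so that all 3 hnRNPK libraries were above NC, the third by the least. When the third was left out, the log2 fold change was 0.88 (SE 0.05, edgeR adjusted p = 1.23e-14). HNRNPR, which binds mRNA in the nucleus and in axons, measured 117.7, 123.2 and 123.3 CPM in CRLM1_NC and 207.7, 209.0 and 105.8 CPM in CRLM1_hnRNPK. Its log2 fold change without the third library was 0.83 in the CRLM1 and 0.79 in the Ctrl background. With all libraries of the CRLM1 background, HNRNPU stood at 0.68 and HNRNPR at 0.57 (edgeR adjusted p = 0.533 for both), and HNRNPR in the Ctrl background at 0.56 (edgeR adjusted p = 0.320).

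PTBP1 and HNRNPL moved the opposite way. PTBP1 (chr19:797075-812327) measured 467, 415 and 756 CPM in Ctrl_hnRNPK against 657 to 679 CPM in Ctrl_NC, and 502, 482 and 736 CPM in CRLM1_hnRNPK against 671 to 680 CPM in CRLM1_NC. The third libraries were above all NC libraries and the others below them. In Antisense_hnRNPK all 3 libraries were low, at 383, 341 and 393 CPM against 606, 624 and 631 CPM. PTBP1 fell by 0.74 on the log2 scale there (SE 0.08, edgeR adjusted p = 1.98e-06). Without the third libraries it fell by 0.58 in the Ctrl background (SE 0.06, edgeR adjusted p = 2.175e-07) and by 0.41 in the CRLM1 background (SE 0.05, edgeR adjusted p = 1.29e-08). With all libraries the values were -0.325 (edgeR adjusted p = 0.398) and -0.197 (edgeR adjusted p = 0.675).

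The PTB paralogues rose where PTBP1 fell. PTBP3 measured 142 ± 5.98 CPM (SD, n = 3) in Ctrl_NC and 236, 203 and 148 CPM in Ctrl_hnRNPK, with all hnRNPK libraries above NC. In the CRLM1 background it went from 160, 142 and 159 CPM to 250, 225 and 107 CPM, the third library now below NC. Without the third libraries it rose by 0.65 and 0.68 in these backgrounds, and by 0.36 in the Antisense background (edgeR adjusted p = 0.00138). PTBP2 stayed a low gene, at 5.64 ± 0.285 CPM in Ctrl_NC, 8.596, 7.998 and 3.526 CPM in Ctrl_hnRNPK, and 10.7, 10.2 and 11.5 CPM in Antisense_hnRNPK. Its log2 fold changes in the same fits were 0.58, 0.42 and 0.58 (edgeR adjusted p = 0.00456, 0.0300 and 0.00233). With all libraries of the Ctrl and CRLM1 backgrounds neither gene passed, with PTBP3 at 0.445 and 0.39 (edgeR adjusted p = 0.327 and 0.629) and PTBP2 at 0.24 and 0.23 (edgeR adjusted p = 0.631 and 0.716).

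HNRNPL measured 129, 130 and 196 CPM in Ctrl_hnRNPK, 96.5, 107 and 149 CPM in CRLM1_hnRNPK and 114, 94.9 and 94.5 CPM in Antisense_hnRNPK. The third Ctrl_hnRNPK library lay within the range of Ctrl_NC, and the third CRLM1_hnRNPK library within that of CRLM1_NC. HNRNPL fell by 0.52 and 0.43 on the log2 scale without the third libraries and by 0.37 in the Antisense background. With all libraries of the Ctrl and CRLM1 backgrounds it stood at -0.35 and -0.23 and did not pass (edgeR adjusted p = 0.352 and 0.639). Its paralogue HNRNPLL, known from splicing of CD45 in lymphocytes, measured 20.2, 18.8 and 18.8 CPM in Antisense_NC and 33.3, 29.4 and 30.3 CPM in Antisense_hnRNPK, without overlap, and rose by 0.68. HNRNPAB fell by 0.475 in the Ctrl background without the third library. HNRNPUL1, a relative of HNRNPU, fell by 0.45 there and by 0.65 in the Antisense background, where it went from 385, 373 and 366 CPM to 239, 227 and 253 CPM. HNRNPA0 fell by 0.36 and SRSF9 by 0.35 in the CRLM1 background without the third library. These 4 genes did not pass with all libraries of those backgrounds, at adjusted p-values of 0.352 (HNRNPUL1), 0.360 (HNRNPAB), 0.619 (HNRNPA0) and 0.666 (SRSF9). HNRNPA3 rose by 0.60 in the Antisense background, from 228, 244 and 242 CPM to 385, 353 and 346 CPM.

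**Figure D4:**
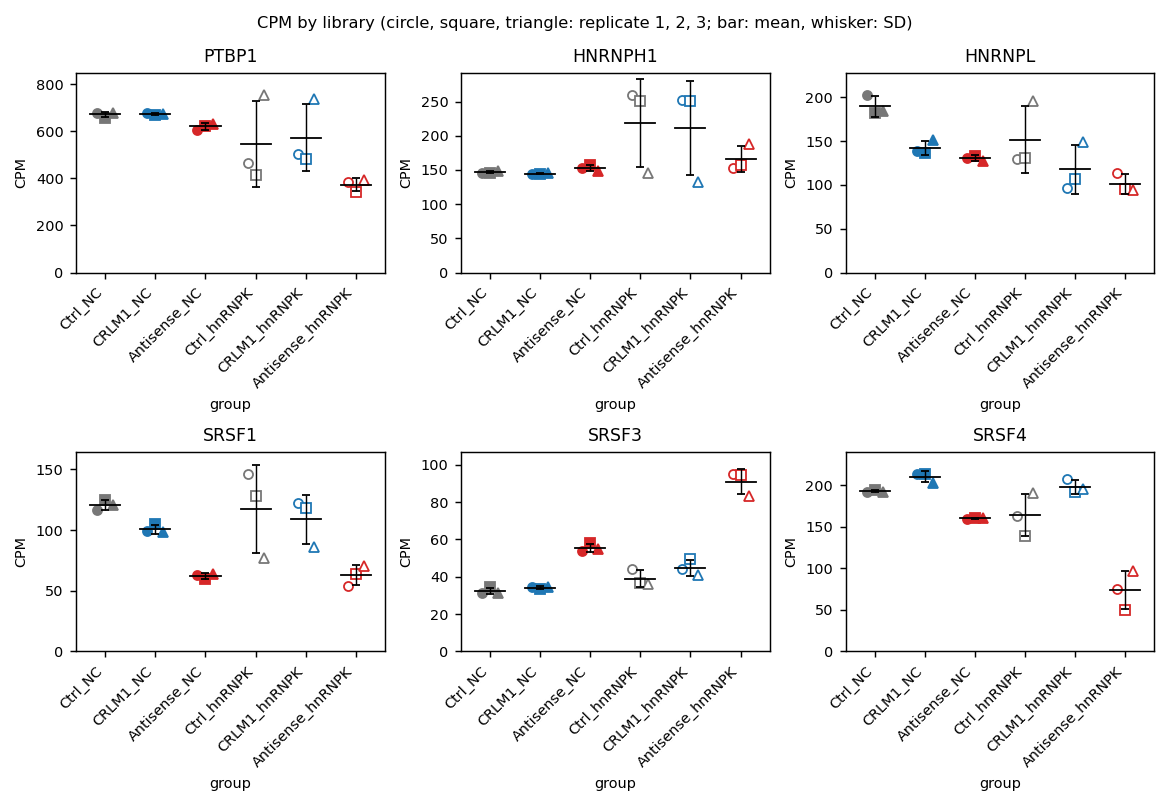
CPM of PTBP1, HNRNPH1, HNRNPL, SRSF1, SRSF3 and SRSF4 in each library by group, with the mean (bar) and SD (whisker) of 3 libraries. The third Ctrl_hnRNPK and CRLM1_hnRNPK libraries (open triangles) fall on the NC side for PTBP1, HNRNPH1 and HNRNPL, and SRSF4 is lowest in Antisense_hnRNPK, at 49.9 to 96.4 CPM.

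In the Antisense background the SR family held both the deepest decrease and the largest increases. SRSF4, one of the larger SR proteins (chr1:29147743-29181900), measured 160, 161 and 160 CPM in Antisense_NC and 75.6, 49.9 and 96.4 CPM in Antisense_hnRNPK. The hnRNPK libraries were all lower and varied widely among themselves, with a log2 fold change of -1.13 (SE 0.18, 0.457-fold, edgeR adjusted p = 3.24e-04). SRSF4 was the only member past 2-fold there, against 13.4% of all genes. SRSF2 measured 98.7, 110 and 97.9 CPM against 69.6, 58.3 and 78.0 CPM, and fell by 0.58 (SE 0.10, edgeR adjusted p = 9.86e-05). The windows printed above for SRSF10 and SRSF3 belong to the largest increases. SRSF10 went from 42.17, 45.04 and 43.09 CPM to 70.8, 70.0 and 73.4 CPM (log2 fold change 0.71, SE 0.08, edgeR adjusted p = 1.95e-06). SRSF3 went from 53.8, 58.0 and 54.8 CPM to 95.3, 94.3 and 83.1 CPM (log2 fold change 0.71, SE 0.09, edgeR adjusted p = 5.94e-06). The groups did not overlap in any of these 4 genes. Over the family, 5 of 11 SRSF genes rose and 3 fell, where 33.4% of all genes were higher and 30.5% lower. None was higher and 7 were lower with the GC and length trend removed, where 15.2% of all genes were higher and 23.4% lower. SRSF1, low in both Antisense groups, had a log2 fold change of 0.01.

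Without the third libraries, 6 SRSF genes rose and 2 fell in the Ctrl background and 8 rose and 1 fell in the CRLM1 background, and TRA2A and TRA2B, activators that bind GAA-rich enhancers, rose in both. Of all genes, 29.6% were higher and 29.9% lower in the former fit and 29.5% and 29.1% in the latter. In the Ctrl background, no SRSF gene was higher and 6 were lower with the GC and length trend removed as well, where 9.0% of all genes were higher and 15.7% lower, and neither TRA2 gene passed. In the CRLM1 background 2 SRSF genes were then higher and 3 lower, where 15.4% of all genes were higher and 10.2% lower, and both TRA2 genes stayed higher. With all libraries no SRSF or TRA2 gene passed in these backgrounds by edgeR or DESeq2, and at an unadjusted p under 0.05 edgeR had 0 of 13 in the Ctrl background and 1 SRSF gene and both TRA2 genes in the CRLM1 background. The 3 genes of the C, M and R group rose in both, as did HNRNPH1, HNRNPH2 and HNRNPH3, each without the third libraries. With scaling to library totals alone, the median log2 fold change of all genes moved to 0.29 in the Antisense background and to 0.21 in the Ctrl background without the third library, and the split in the Antisense background was 25 higher and 5 lower, where 62.8% of all genes passed (43.1% higher, 19.6% lower). Without the third libraries this scaling gave 25 higher and 6 lower in the Ctrl background, where 59.4% of all genes passed (37.2% higher, 22.2% lower), and 25 higher and 7 lower in the CRLM1 background, where 58.4% passed (31.9% higher, 26.5% lower).

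GC content moved with these results. The Spearman correlation of the log2 fold change with transcript GC content was -0.726 over 14337 genes and -0.719 over the 36 members in the Antisense background. Without the third libraries it was -0.752 and -0.662 in the Ctrl background and -0.770 and -0.618 in the CRLM1 background. These are descriptions, since genes of the same libraries are not independent. The members are GC-poor, with a median of 42.0% against 49.5% over the genes of the Antisense comparison. The median GC content there was 39.9% among members that rose and 54.3% among members that fell. The level-to-GC correlation across genes was -0.394 to -0.649 in the hnRNPK libraries other than the third Ctrl and CRLM1 ones, which had 0.597 and 0.648, above the NC libraries of those backgrounds (0.508 to 0.542). The part of GC content in the results was not tested beyond the fits given next.

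With the GC and length trend removed, the counts shrank and the direction of the excess turned in 2 backgrounds. In the Antisense background 1 member was higher and 19 lower, where 38.6% of all genes passed (15.2% higher, 23.4% lower). In the Ctrl background without the third library 3 were higher and 11 lower, where 24.7% passed (9.0% higher, 15.7% lower). In the CRLM1 background 14 were higher and 5 lower without the third library, where 25.7% passed (15.4% higher, 10.2% lower). With all libraries, HNRNPU alone passed in the CRLM1 background (log2 fold change 0.46, edgeR adjusted p = 0.0152), where 0.729% of all genes passed (0.577% higher, 0.153% lower), and no member passed in the Ctrl background, with 8 of 36 at an unadjusted p under 0.05 by edgeR and 0.0% of all genes past the adjusted one. DESeq2 was not run with this step.

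Several members passed in the same direction after this step. HNRNPH1 and HNRNPH2 stayed higher without the third libraries, at 0.38 and 0.36 in the Ctrl background and 0.47 and 0.62 in the CRLM1 background. HNRNPM, a GU-binding protein with a GC content of 53.1% (chr19:8444767-8489114), was the member higher in all 3 backgrounds, at 0.71, 0.53 and 0.60 for Ctrl and CRLM1 without the third libraries and for Antisense. With all libraries and no trend removed it passed in neither the Ctrl (edgeR adjusted p = 0.422) nor the CRLM1 background (edgeR adjusted p = 0.653). HNRNPM was singled out here after its values were seen. It measured 43.9, 46.7 and 45.9 CPM in Ctrl_NC against 59.7, 65.0 and 41.5 CPM in Ctrl_hnRNPK, and 42.6, 47.2 and 44.7 CPM in Antisense_NC against 60.3, 63.8 and 55.5 CPM in Antisense_hnRNPK. In the CRLM1 background it went from 50.8, 47.7 and 53.1 CPM to 56.5, 63.3 and 49.3 CPM. The Antisense groups did not overlap, the third Ctrl_hnRNPK library lay below NC, and the third CRLM1_hnRNPK library lay within the NC range. SRSF4 (-1.03), SRSF2 (-0.62), HNRNPUL1 (-0.36) and PTBP1 (-0.31) stayed lower in the Antisense background.

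Other members did not. SRSF10 (-0.001), SRSF3 (0.05), HNRNPLL (-0.005), HNRNPA3 (-0.10) and PTBP2 (-0.12) no longer passed in the Antisense background, and PTBP3 turned to -0.36 (edgeR adjusted p = 0.00291). In the fits that left out the third libraries, PTBP1 no longer passed in the Ctrl background (-0.16, edgeR adjusted p = 0.0553) or the CRLM1 background (0.01), and neither did PTBP2 or PTBP3. HNRNPH3 and HNRNPR were not among the 3 members that were higher in that Ctrl fit. HNRNPL no longer passed in the Antisense background, nor in the CRLM1 background without the third library. HNRNPK itself, raised by 0.35 in the Antisense background (edgeR adjusted p = 8.39e-04), stood at -0.21 with the trend removed (edgeR adjusted p = 0.0340). In the Ctrl and CRLM1 backgrounds it stood at 0.29 and 0.56 with all libraries, and at 0.44 and 0.65 without the third ones, where it passed. With all libraries and the trend removed, it stood at -0.09 and 0.31 in these backgrounds and did not pass (edgeR adjusted p = 0.63 and 0.11).

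**Figure D5:**
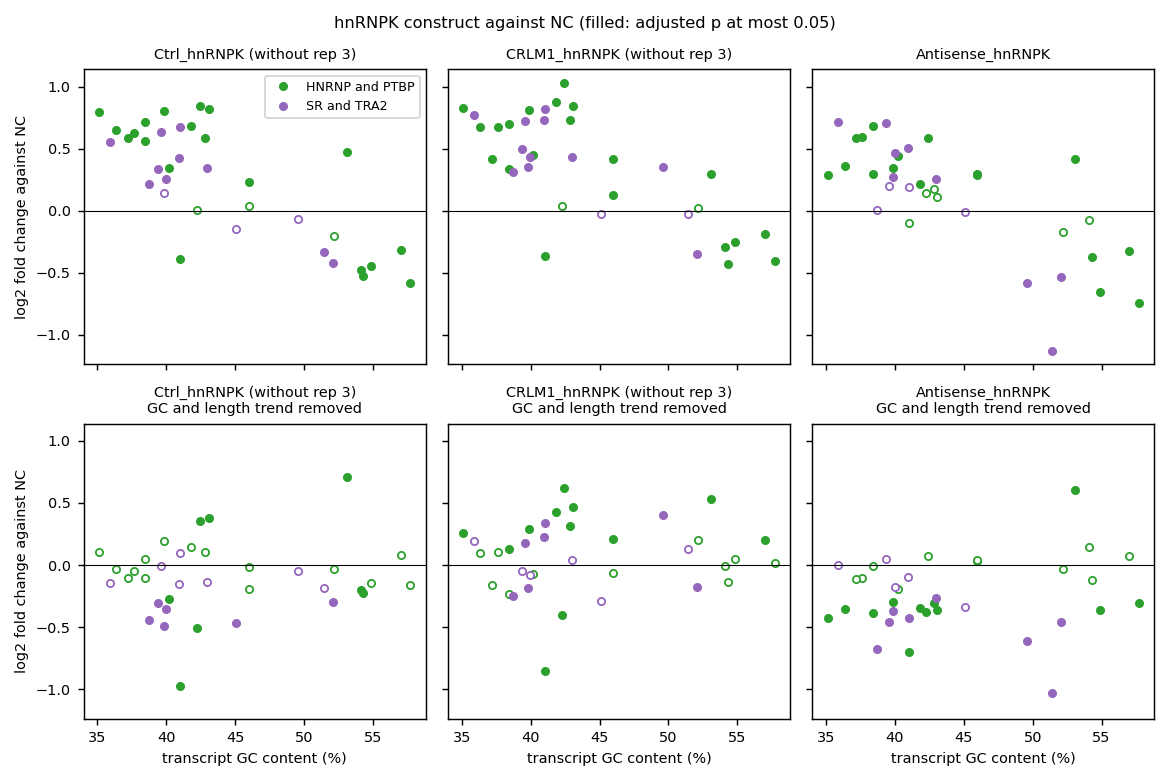
Log2 fold change of the 36 tested members between hnRNPK and NC against transcript GC content (%), in each background, before (top) and after (bottom) the GC and length trend was removed, with filled symbols where the edgeR adjusted p was at most 0.05. In the top row GC-poor members are mostly above 0 and GC-rich members below it. In the bottom row HNRNPM, at 53.1% GC, is the highest point of the Ctrl and Antisense panels.

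Whether the construct acted differently between backgrounds was tested by an interaction term. With all libraries no member passed by edgeR in either interaction, with 1 of 36 at an unadjusted p under 0.05 for CRLM1 minus Ctrl and 3 of 36 for Antisense minus Ctrl (0.0% of all genes passed in both). No other tool was run on the interactions. Without the third Ctrl_hnRNPK and CRLM1_hnRNPK libraries, SRSF2 (0.45, edgeR adjusted p = 0.00993) and SRSF4 (0.33, edgeR adjusted p = 0.0319) responded more positively in the CRLM1 than in the Ctrl background, where 3.45% of all genes passed (3.36% higher, 0.0904% lower). For Antisense minus Ctrl, 1 of 37 tested members was higher and 8 were lower, where 6.62% of all genes passed (2.85% higher, 3.77% lower). The largest difference was in HNRNPH1 (-0.73, edgeR adjusted p = 0.00141), followed by SRSF2 (-0.53), HNRNPR (-0.52), HNRNPH3 (-0.48) and HNRNPU (-0.48). With the GC and length trend removed as well, 4 members were higher for CRLM1 minus Ctrl, where 6.44% of all genes passed (6.29% higher, 0.149% lower), and 9 were lower for Antisense minus Ctrl, where 7.34% passed (2.96% higher, 4.38% lower), with HNRNPH1 at -0.755. With all libraries and the trend removed, HNRNPH1 (-0.62), HNRNPR (-0.52), HNRNPU (-0.46) and SRSF4 (-0.90) were lower for Antisense minus Ctrl, where 2.09% passed (0.854% higher, 1.24% lower), and no member passed by edgeR for CRLM1 minus Ctrl, with 6 of 36 at an unadjusted p under 0.05. The difference in SRSF4 between the Antisense and Ctrl backgrounds was -0.81 without the third libraries and did not pass (edgeR adjusted p = 0.0681). Both interactions use the same Ctrl libraries.

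The regulators and partners of the SR proteins were taken from fixed lists. Their counts stand beside the shares of all genes that passed, which were 34.4% higher and 32.2% lower in Antisense_NC against Ctrl_NC and 33.4% and 30.5% in Antisense_hnRNPK against Antisense_NC. These shares were 29.6% and 29.9% in the Ctrl background and 29.5% and 29.1% in the CRLM1 background when the third libraries were left out. With all libraries, no gene of the 3 lists described here passed by edgeR or DESeq2 in the latter backgrounds, where 0.0% of all genes did by edgeR. At an unadjusted p under 0.05 by edgeR, the Ctrl background had 3 of 7 kinases and import factors, 0 of 9 SR-related factors and 2 of 13 splice site factors, and the CRLM1 background 1, 0 and 1. Of 7 SR protein kinases and import factors, 6 were higher and none lower in Antisense_NC than in Ctrl_NC, with CLK2 at 0.925, and 4 were higher and 1 lower with the GC and length trend removed (29.8% and 34.4% of all genes). In Antisense_hnRNPK against Antisense_NC, 2 were higher and 2 lower, and 1 and 4 with the trend removed (15.2% and 23.4% of all genes). SRPK1, the kinase that readies SR proteins for nuclear import, went from 57.5, 62.3 and 54.2 CPM to 106, 117 and 111 CPM without overlap (log2 fold change 0.93, edgeR adjusted p = 4.545e-07), and stood at 0.35 with the trend removed (edgeR adjusted p = 0.00312). CLK3 fell by 1.33 on the log2 scale in the same comparison. In the Ctrl and CRLM1 backgrounds without the third libraries, 3 were higher and 2 lower, and 5 higher and 1 lower, with SRPK1 at 0.855 in the former and CLK1 at 0.96 in the latter. With the trend removed as well these counts were 1 and 1, and 2 and 0 (9.0% and 15.7%, and 15.4% and 10.2% of all genes).

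Of 9 tested SR-related factors other than the TRA2 genes, 6 were higher and 2 lower in Antisense_NC than in Ctrl_NC, with SON, a speckle protein, at 1.11 (edgeR adjusted p = 5.27e-20). With the trend removed 4 were higher and 4 lower. In Antisense_hnRNPK 3 were higher and 4 lower, and none and 5 with the trend removed, with SRRM2, a scaffold of speckles, at -1.37 (edgeR adjusted p = 5.93e-07) before and -1.02 after the trend was removed. Of 13 factors of U1, U2 and the 3′ splice site, 2 were higher and 10 lower in Antisense_hnRNPK than in Antisense_NC, 2 and 9 in Ctrl_hnRNPK without the third library, and 2 and 7 in CRLM1_hnRNPK without it. The median log2 fold change over this list was -0.74, -0.53 and -0.41. SF3B4, which contacts RNA near the branch point, fell by 1.09 in the Antisense background. SF3B1, of the same complex, rose by 1.01 and 1.16 in the Ctrl and CRLM1 backgrounds without the third libraries. These values come from different backgrounds and are not set against each other. With the trend removed, the counts were 1 and 8, 1 and 6, and 3 and 2, beside 15.2% and 23.4%, 9.0% and 15.7%, and 15.4% and 10.2% of all genes.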

How the data were processed

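RNA-seq was done by the authors on 18 HCT116 libraries, 3 in each of 6 groups, with KAPA RNA HyperPrep libraries and paired-end sequencing. Per the study's methods and the submitters' processing notes (bcl2fastq, TopHat2, edgeR, GRCh38), reads were trimmed with FASTX-Toolkit, aligned with TopHat2 and kept when mapped uniquely. The counter and its strand setting are not given in the sources used here. The authors deposited raw counts per gene for 31004 genes, and FPKM values for 30879 genes. Counts were tested here, and the deposited FPKM served only to compare levels between genes.

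Groups came from the labels. Comparisons used edgeR (4.0.16, R 4.3.3) quasi-likelihood tests on the libraries of the groups compared, with TMM scaling and filterByExpr, two-sided, Benjamini-Hochberg adjusted over all genes tested. A gene passed at an adjusted p of at most 0.05. CPM values are scaled by TMM over all libraries. Transcript GC content, length and coding sequences came from Gencode v44, which held all 38 members. For the trend on GC content and length, each library's deviation from the gene mean in log2 CPM (prior count 2) was regressed on natural splines with 5 degrees of freedom, and the fit was entered as offsets. The edgeR test between groups was run on simulated counts modelled on CRLM1_NC vs Ctrl_NC and Antisense_hnRNPK vs Antisense_NC. The trend offsets, the interaction term and a deviating library were not simulated.

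Alternatives were other scaling, no filter, DESeq2 (1.42.0), 1 fit of all libraries, a replicate block, the trend removal and leaving out each library. Totals alone, and trend removal or totals combined with leaving out the third libraries, were added after seeing the data. Members, lists, tests and alternatives were chosen with earlier results of these data known. Genes named with full statistics were PTBP1, PTBP2, PTBP3 and, for each comparison, at most 4 members in each direction with the largest log2 fold change among those that passed at a mean of at least 1 CPM. Of other fixed lists, at most 3 genes in each direction are named. Where no member passed with all libraries, naming used the fit without the third hnRNPK library. Replicates were labelled biological. Precision is that of 3 libraries per group.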

Additional observations from a re-analysis of the deposited data

Results flagged for a closer look

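The effect of the HNRNPK construct differed between backgrounds for several members, by the interaction term of edgeR's quasi-likelihood test without the third Ctrl_hnRNPK and CRLM1_hnRNPK libraries. With all libraries none of these differences passed, except that HNRNPH1 (-0.62), HNRNPR (-0.52) and HNRNPU (-0.46) passed for Antisense minus Ctrl once the GC and length trend was removed. For the Antisense minus the Ctrl background, the log2 differences were -0.73 for HNRNPH1 (adjusted p = 0.00141), -0.48 for HNRNPU (adjusted p = 0.00696), -0.48 for HNRNPH3 (adjusted p = 0.0114), -0.52 for HNRNPR (adjusted p = 0.0127), -0.53 for SRSF2 (adjusted p = 0.0254), -0.42 for HNRNPA1 (adjusted p = 0.0258), -0.44 for HNRNPA2B1 (adjusted p = 0.0308), -0.45 for SRSF11 (adjusted p = 0.0328) and 0.38 for HNRNPAB (adjusted p = 0.0383). All but HNRNPAB, among these 9 genes, were thus raised less, or lowered more, in the Antisense background. Of all genes, 6.62% passed in this interaction (2.85% higher, 3.77% lower). For the CRLM1 minus the Ctrl background, the differences were 0.45 for SRSF2 (adjusted p = 0.00993) and 0.33 for SRSF4 (adjusted p = 0.0319). There 3.45% of all genes passed (3.36% higher, 0.0904% lower). The Antisense_NC libraries already differed from Ctrl_NC without the construct, in members and in genes at large. By edgeR, 26 of 36 members were past an adjusted p of 0.05, where 66.5% of all genes were. Groups of 3 libraries were too small for a test of single outlying libraries.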

How the results depend on the processing

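Counts of members that passed in the NC comparisons and in the Antisense background were within 1.5 times of the values above under RLE scaling, no filter, DESeq2, totals alone, the replicate block and trend removal. These totals do not carry direction, which changed in several fits. Trend removal turned 19 higher and 7 lower into 1 and 19 in Antisense_hnRNPK, and 13 and 13 into 5 and 22 in Antisense_NC vs Ctrl_NC. It turned 12 and 15 into 17 and 9 in CRLM1_NC vs Antisense_NC. Totals alone turned 5 and 11 into 10 and 7 in CRLM1_NC vs Ctrl_NC. The shares of all genes for these fits are given above. For 1 fit of all libraries, the replicate block and most fits that left out 1 library, the share of all genes that passed is not given here. A change in these counts can therefore not be told from a change over all genes. In 1 fit of all libraries the totals were 7 (Antisense_NC vs Ctrl_NC), 16 (Antisense_hnRNPK), 3 (CRLM1_NC vs Antisense_NC) and 0 (CRLM1_NC vs Ctrl_NC, with 5 at an unadjusted p under 0.05). Leaving out each library in turn gave 21 to 27, 23 to 29, 25 to 27 and 14 to 17 for these comparisons, and 0 to 30 for Ctrl_hnRNPK and 0 to 32 for CRLM1_hnRNPK, where only leaving out the third hnRNPK library gave any, 30 and 32. Without that library, totals alone gave 31 and 32 and trend removal 14 and 19. Trend removal with all libraries gave 1 for CRLM1_hnRNPK, with or without the replicate block. The interactions gave, for CRLM1 minus Ctrl, 2 without the third libraries and 4 with trend removal as well, and for Antisense minus Ctrl 9 and 9, or 4 with trend removal alone. Within the 6 comparisons, same-numbered libraries of the compared groups did not deviate together (correlations -0.094 to 0.045), so numbers were not taken as pairs. Pairs of hnRNPK groups, which the interactions compare, were not tested in this way. Replicate 3 of Ctrl_hnRNPK and of CRLM1_hnRNPK had level-to-GC correlations of 0.597 and 0.648. Replicates 1 and 2 of these groups had -0.588 to -0.394. The replicate block gave 16, 27 and 24 members in CRLM1_NC vs Ctrl_NC, CRLM1_NC vs Antisense_NC and Antisense_NC vs Ctrl_NC. It gave 0, 0 and 25 in Ctrl_hnRNPK, CRLM1_hnRNPK and Antisense_hnRNPK against NC, and 0 in both interactions.

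Of 942 alternative values of the 63 log2 fold changes named by rule, 812 kept direction and side of the threshold, 31 no longer passed, 58 newly passed and 41 changed sign. Sign changes lay near 0 or came with trend removal, given as trend removal, then with the replicate block, then without the third library where run. In CRLM1_NC vs Ctrl_NC, PTBP1 was 0.071 on totals alone and 0.008 in 1 fit of all libraries, and PTBP3 -0.007 and -0.010. In CRLM1_NC vs Antisense_NC, PTBP2 was 0.234 and 0.239, and -0.135 to 0.064 when leaving out each library, above 0 without Antisense_NC replicate 1 (0.064) and without CRLM1_NC replicate 3 (0.010), and PTBP3 0.028 and 0.026. In Antisense_NC vs Ctrl_NC, PTBP2 was -0.081 and -0.095, and PTBP3 -0.031 and -0.031. In Ctrl_hnRNPK, PTBP2 was -0.302, -0.334 and -0.103, and PTBP3 -0.041, -0.043 and -0.035. In CRLM1_hnRNPK, PTBP1 was 0.026, 0.026 and 0.013, and PTBP2 -0.108, -0.113 and -0.160. In Antisense_hnRNPK, SRSF10 was -0.001, -0.001 and -0.024, HNRNPLL -0.005, -0.007 and -0.002, HNRNPA3 -0.104, -0.107 and -0.083, PTBP2 -0.115, -0.107 and -0.173, and PTBP3 -0.357, -0.359 and -0.434. The cause of these changes was not tested beyond the alternatives themselves.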

Other observations

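RNA-binding splicing regulators outside the hnRNP and SR families were described from a list of 25 genes, all tested. In Antisense_hnRNPK against Antisense_NC, 15 were higher and 7 lower by edgeR, where 33.4% of all genes were higher and 30.5% lower. With the GC and length trend removed, 4 were higher and 9 lower (15.2% and 23.4% of all genes). TIA1, a U-rich binding protein of stress granules, rose by 0.795 on the log2 scale there (edgeR adjusted p = 4.32e-06) and stood at 0.086 with the trend removed. With all libraries and no trend removed, no gene of the list passed by edgeR or DESeq2 in Ctrl_hnRNPK or CRLM1_hnRNPK, with 4 of 25 at an unadjusted p under 0.05 by edgeR in each, where 0.0% of all genes passed by edgeR. Without the third library, 16 were higher and 8 lower in Ctrl_hnRNPK (29.6% and 29.9% of all genes) and 17 higher and 6 lower in CRLM1_hnRNPK (29.5% and 29.1%), with MATR3, a nuclear matrix protein, at 0.94 in the former and TIA1 at 1.07 in the latter. RALY, a relative of HNRNPC, fell by 0.79 and 0.53 in these fits. With the trend removed as well, 3 were higher and 7 lower in Ctrl_hnRNPK (9.0% and 15.7%) and 11 higher and 4 lower in CRLM1_hnRNPK (15.4% and 10.2%). All libraries with the trend removed gave 1 gene higher and none lower in CRLM1_hnRNPK (0.577% and 0.153%), and none passed in Ctrl_hnRNPK. Between Antisense_NC and Ctrl_NC, 10 were higher and 4 lower (34.4% and 32.2%), with RBM10 at 0.88 and TARDBP (TDP-43) at -0.60, and 8 were higher and 11 lower with the trend removed (29.8% and 34.4%). Between CRLM1_NC and Ctrl_NC, 8 were higher and 3 lower (16.9% and 17.4%), and 7 and 5 with the trend removed (14.4% and 18.9%).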
